A study of Mus musculus with 2 samples.

Results

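The metabotropic glutamate receptors are G protein-coupled receptors for the transmitter glutamate. The description covers 6 of their genes, Grm2, Grm3, Grm4, Grm5, Grm7 and Grm8, which were chosen by symbol from the 32285 genes in the feature lists of the series. Other members of the family were not analysed here. The counts come from 10x Visium, an array of barcoded spots that captures polyA RNA from a tissue section laid over it. A spot is a small region that can hold several cells of different types. The study holds 2 fresh-frozen sections, each 10 µm thick, of whole brain tissue from wild-type C57BL/6 mice (C57BL/6J in the design text), labelled replicates 1 and 2 and ZT12, a zeitgeber time. No treatment or mutant allele is named, and the labels do not say whether the sections came from separate animals, so every p-value below measures the spread between these 2 sections only, which may be technical.

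The family is divided by sequence and coupling into group I, represented here by Grm5 (mGlu5), group II, with Grm2 (mGlu2) and Grm3 (mGlu3), and group III, with Grm4, Grm7 and Grm8 (mGlu4, mGlu7 and mGlu8). Group I receptors act through Gq and phospholipase C, mostly at the postsynaptic membrane, where Homer and Shank scaffolds hold them. Groups II and III act through Gi/o, lower cyclic AMP and restrain transmitter release from axon terminals, and Grm3 is also known from glia. A transcript counted in a spot lies near the cell body, whereas a presynaptic receptor protein may lie in a distant terminal.

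Gene positions come from RefSeq (build GRCm38.p6), and all 6 genes matched by symbol. Grm2 (ENSMUSG00000023192) spans chr9:106644534-106656109, which is 11576 bases. Grm3 (ENSMUSG00000003974) spans chr5:9485236-9725352, and Grm4 (ENSMUSG00000063239) spans chr17:27422387-27513826. Grm5 (ENSMUSG00000049583) spans chr7:87583981-88135063. Both Grm7 (ENSMUSG00000056755, chr6:110645349-111567230) and Grm8 (ENSMUSG00000024211, chr6:27275121-28135146) lie on chromosome 6, and Grm7 is the longest of these loci at 921882 bases. RefSeq promoter windows were held for 4 of the genes. The windows of the group II pair are shown because these relatives had different regional patterns (below). Each is the 250 bases before the annotated start, on the minus strand, written 5′ to 3′ with GC boxes (GGGCGG, searched on both strands) in capitals.
Grm2, chr9:106656110-106656359: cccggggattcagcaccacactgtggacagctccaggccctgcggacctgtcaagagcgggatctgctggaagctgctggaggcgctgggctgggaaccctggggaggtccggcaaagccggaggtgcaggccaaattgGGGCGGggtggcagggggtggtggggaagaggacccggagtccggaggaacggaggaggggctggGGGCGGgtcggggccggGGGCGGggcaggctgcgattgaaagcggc
Grm3, chr5:9725353-9725602: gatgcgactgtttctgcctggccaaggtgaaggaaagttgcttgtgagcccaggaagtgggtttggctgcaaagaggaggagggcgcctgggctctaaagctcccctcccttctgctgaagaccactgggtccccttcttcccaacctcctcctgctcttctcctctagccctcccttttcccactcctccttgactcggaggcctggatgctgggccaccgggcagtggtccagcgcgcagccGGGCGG

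The Grm2 window held 3 GC boxes, 16 CpG pairs and 71.2% G or C. The Grm3 window held 1 GC box, 8 CpG pairs and 62.4% G or C. Over 32526 different windows of the same 250 bases in the table, 33.0% held a GC box and the median G or C content was 52.4%. A CCAAT box (CCAAT) was found in the Grm2 window and not in that of Grm3, against 33.8% of all windows. Neither window held TATAAA (12.3% of all windows), TGACGTCA (1.56%) or an E-box, CANNTG (66.2%), on either strand. The CCAAT match of Grm2 lay on the opposite strand and shared 1 base with a GC box. These matches describe letters only.

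Spots with at least 500 unique molecular identifiers (UMIs, each standing for 1 captured molecule) were kept. Section 1 gave 3030 of its 3167 spots, with a median of 18127 UMIs, and section 2 gave 2531 of its 2533, with a median of 21555. They held 9222 and 8910 UMIs of the 6 receptors. Spots were grouped by 19 lists of anatomical marker genes, none of them a receptor, and 10 groups had at least 20 spots in both sections. These groups held 48.9% and 64.8% of the kept spots, and 1009 and 826 spots joined no list. A spot had to pass a score threshold for its top list and lead the next list by a set margin. In each of these 10 groups and both sections all markers of its list were higher than in the other spots, except 1 of 7 in deep isocortex of section 1 and 1 of 6 in the Pvalb and Gad1 group of section 2. The same markers placed the spots, so this was largely fixed by the rule and is no separate check of the groups. Group names stand for spots rich in the named markers, not for drawn anatomy. The striatal and hypothalamic groups were uneven. Striatum had 41 spots with a mean of 9375 UMIs in section 1, where ependymal markers came next, and 211 spots with a mean of 21912 UMIs in section 2. Hypothalamus had 40 spots with 740835 UMIs in all in section 1 and 314 with 8438704 in section 2. Of these, 20 of 40 and 59 of 314 lay within 0.1 of the score threshold or of the margin. Excitatory neuron markers summed to 1181 and 2652 CPM in the hypothalamic spots. The sections were processed with different software versions per the file headers, which cannot be told apart from the section. The sections share 1965 spot barcodes, which belong to the array and not to cells.

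Levels are given as CPM, a gene's UMIs per 1000000 UMIs of the summed spots, for section 1 and then section 2. Orders of level are those among the 10 groups. They are compared within a gene, since 3′ counts do not give a scale on which different genes can be ranked. In each edgeR comparison each group was compared with the average of the remaining 9, and a gene was called where its p, adjusted by Benjamini-Hochberg over the 6751 genes tested, was under 0.05. All 6 receptors passed the expression filter, and all 6 were called for any difference among the groups. That test called 61.1% of all genes tested, so the count by itself does not set the family apart. Ranked by p among the 6751 genes, Grm4 was at 164, Grm2 at 557, Grm5 at 701 and Grm8 at 969, while Grm3 (2466) and Grm7 (3052) lay further down.

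**Figure D1:**
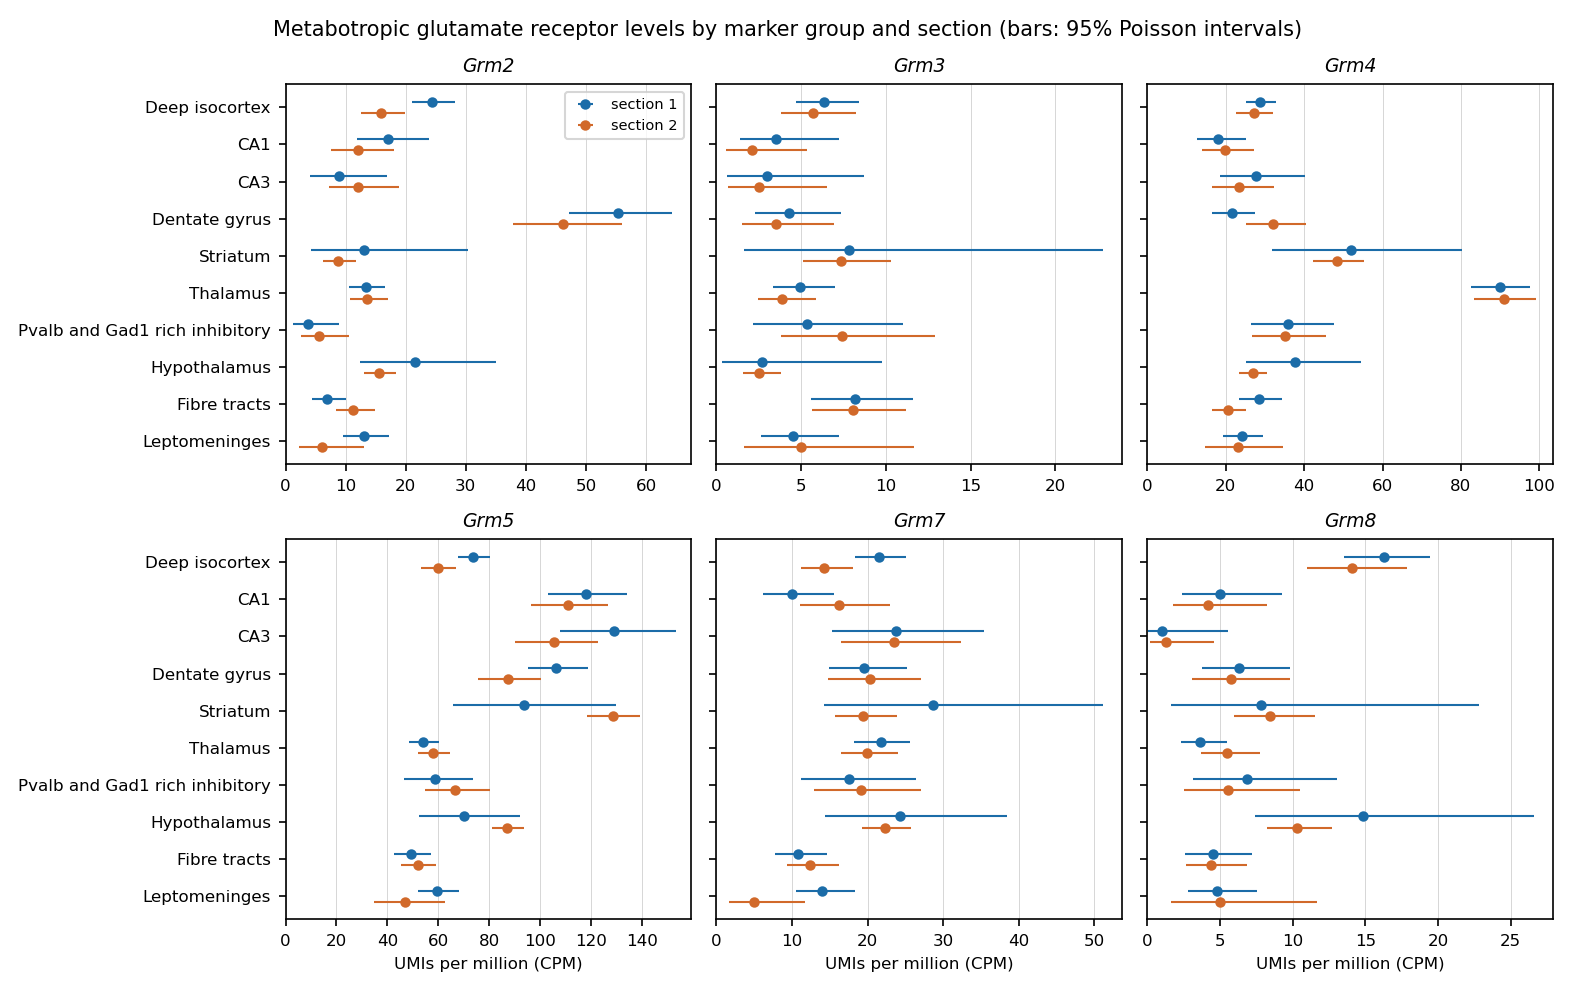
Level of each receptor gene in CPM (horizontal axis, linear from 0) in the 10 marker groups, with a point for each section and 95% Poisson intervals that cover counting error only. Grm2 peaks in dentate gyrus spots (55.3 and 46.3) and Grm4 in thalamic spots (89.9 and 90.9), while Grm8 is highest in deep isocortex spots (16.3 and 14.1).

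Grm5, the postsynaptic group I receptor, was highest among the 10 groups in hippocampal and striatal spots and lowest by mean level in fibre tracts. It reached 129 and 105 CPM in CA3, 118 and 111 in CA1, 93.7 and 128 in striatum and 106 and 87.2 in dentate gyrus. In thalamus it was at 54.1 and 58.0 CPM, in leptomeninges at 59.6 and 47.1, and in fibre tracts at 49.4 and 51.8. Each of the 8 sums from the first 4 groups lay above each of the 6 sums from the last 3. Hypothalamus (70.2 and 87.1), deep isocortex (73.7 and 59.8) and spots rich in Pvalb and Gad1 (58.8 and 66.5), which mark inhibitory neurons, lay mostly between, though the lower Pvalb and Gad1 value was within the leptomeningeal range. By mean level the order was CA3, CA1, striatum and dentate gyrus, and neighbours in that order overlapped between sections. Both CA1 sums lay above both dentate sums. Of the groups with at least 20 spots in section 1 only, superficial isocortex held 95.9 CPM (428 UMIs). Brainstem (46.9), cerebellar granule spots (41.8) and Purkinje spots (35.0) lay below every sum of the 10 groups, brainstem by little.

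In the fit, Grm5 was higher in CA1 by 0.59 ± 0.11 (log2 fold change ± SE, adjusted p = 0.00016), in CA3 by 0.62 ± 0.12 (adjusted p = 0.00033) and in striatum by 0.74 ± 0.11 (adjusted p = 1.1e-05). In CA1, 2 of the 6 receptors were called, against 12.7% of all genes. In CA3, 2 of 6 were called, against 17.1%. In striatum it was 2 of 6, against 9.23%. Grm5 was lower in fibre tracts (-0.61 ± 0.11, adjusted p = 3.2e-05), thalamus (-0.52 ± 0.10, adjusted p = 0.00011) and leptomeninges (-0.54 ± 0.13, adjusted p = 0.0013). Fibre tracts called 3 of the 6 receptors and 35.6% of all genes, thalamus 2 of 6 and 22.6%, and leptomeninges 3 of 6 and 29.7%. Fewer cells of a type and less RNA per cell cannot be told apart in such sums. In runs with a section left out, only the sums of the compared group or pair were dropped from that section. The other groups kept their sums of both sections. The CA1 call held under every alternative run. The fibre tract, thalamic and leptomeningeal calls held with either section's sum left out and did not pass with all sums thinned to the smallest (-0.07, -0.29 and -0.36). Thinned, CA3 (0.42) and striatum (0.50) did not pass either. The CA3 call did not pass without section 1 (0.50), nor the striatal call without section 2, where the value from the shallow spots of section 1 was 0.16.

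Excitatory neuron markers moved with part of this pattern. Their summed level was 4201 and 4840 CPM in CA1 and 5201 and 5460 in CA3, against 1227 and 1785 in fibre tracts, and 1753 and 2481 in striatum, where Grm5 was high. Of the 5 genes, 4 were higher and 1 lower in CA1 and in CA3, 3 were lower in striatum and 4 were lower in fibre tracts. Over the 10 groups, which share their spots and depth with the lists, Pearson's correlation of log2 CPM of Grm5 was 0.82 and 0.55 with this list and -0.80 and -0.72 with the oligodendrocyte list. Their part in the Grm5 results was not tested.

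Smaller differences of Grm5 also passed, at 0.29 ± 0.10 in dentate gyrus (adjusted p = 0.046) and -0.28 ± 0.09 in deep isocortex (adjusted p = 0.034). Neither passed with either section left out, where the dentate value was 0.15 without section 1 and 0.40 without section 2, and the cortical values were -0.44 and -0.14. Among hippocampal fields no difference of Grm5 was called. CA1 minus CA3 was -0.03 on the log2 scale with a 95% interval from -0.34 to 0.28. CA1 minus dentate gyrus was 0.28 (-0.01 to 0.56) and CA3 minus dentate gyrus 0.30 (-0.0042 to 0.61). The striatum minus deep isocortex difference, a pair added after group sizes were known, was 0.92 ± 0.14 (adjusted p = 1.1e-05). It was 0.25 without section 2 and 0.69 with thinned sums, and called in neither. That pair called 4 of 6 receptors, against 10.9% of all genes.

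A share of spots with a UMI depends on depth, so it was also taken after thinning each spot to 5000 UMIs. Unthinned, 87.9% and 96.8% of CA1 spots held a Grm5 UMI, and 36.9% and 50% of fibre tract spots. Thinned, the shares were 45.5% and 47.6% in CA1 and 20.9% and 25.1% in fibre tracts. The thinned shares leave out 75 of 377 fibre tract spots in section 1 and 3 of 314 in section 2 that held too few UMIs, and no CA1 spot. Among the spots left, the CA1 share was above that of fibre tracts in both sections. Spots rich in fibre tract markers also hold other cells, so a share there is not a zero level.

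Grm2, a group II autoreceptor of glutamatergic neurons, stood highest in dentate gyrus spots, with 55.3 CPM (167 UMIs in 104 spots) and 46.3 CPM (105 UMIs in 93 spots). Deep isocortex followed at 24.4 and 15.9 CPM, and hypothalamus at 21.6 and 15.5. The other hippocampal fields were lower, with 17.1 and 12 CPM in CA1 and 8.93 and 12.1 in CA3. Both dentate sums lay above every other sum of the 10 groups. Thalamus (13.3 and 13.6), striatum (13 and 8.65), leptomeninges (13 and 6.01) and fibre tracts (6.87 and 11.3) spanned similar ranges. Spots rich in Pvalb and Gad1 were lowest at 3.82 and 5.54 CPM, from 5 and 9 UMIs, with both sums below those of the remaining 9 groups.

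The dentate difference was 2.08 ± 0.15 (adjusted p = 3.3e-12) and was called under every alternative run, with values from 1.95 to 2.14. In the dentate comparison 2 of the 6 receptors were called, against 20.3% of all genes. Grm2 was lower in CA1 than in dentate gyrus, at -1.75 ± 0.23 (adjusted p = 4.7e-06), and lower in CA3, at -2.15 ± 0.29 (adjusted p = 2.2e-06), each also with either section left out. CA1 minus dentate gyrus called 1 of 6 receptors, against 6.04% of all genes, and CA3 minus dentate gyrus 2 of 6, against 10.6%. Of 5 excitatory neuron genes, 4 were higher in dentate gyrus. Their summed level was 4130 and 4690 CPM there, against 1181 to 5460 in the other groups. In CA1 and in CA3, 4 of the 5 were also higher and 1 was lower, while Grm2 was below its dentate level. The part of these genes in the result was not tested.

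Grm2 was lower in spots rich in Pvalb and Gad1 (-1.63 ± 0.36, adjusted p = 0.0016), where it was the only 1 of 6 receptors called, against 15% of all genes. It was higher in deep isocortex (0.65 ± 0.15, adjusted p = 0.0019), where 3 of 6 were called, against 18.9%. Without section 1 neither passed (-1.28 and 0.36), nor did either under the stricter marker threshold (-1.06 and 0.46). The deep isocortex call was also lost with odd-numbered markers (0.40) and with thinned sums (0.31), while the Pvalb and Gad1 value was -0.95 and called under the looser threshold. Fibre tracts minus deep isocortex was -1.03 ± 0.22 (adjusted p = 0.00044) and was -0.40 without section 1 and -1.28 with thinned sums, called in neither. This pair called 3 of 6 receptors, against 38.4% of all genes. Of the added pairs, thalamus minus deep isocortex was -0.56 ± 0.19 (adjusted p = 0.029), a pair that called 3 of 6 receptors and 24.4% of all genes. Striatum minus deep isocortex was -1.04 ± 0.27 (adjusted p = 0.010). Without section 1 these were -0.18 and -0.81 and neither passed, and the striatal pair did not pass without section 2 either (-1.0). Both also missed the threshold with DESeq2.

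Superficial isocortex spots could be described in section 1 only, since section 2 had 6 of them. There Grm2 was at 30.9 CPM (138 UMIs in 138 spots, 95% Poisson interval 26.0 to 36.5), above the deep isocortex level of the same section. Cerebellar granule spots of section 1 held 24.4 CPM from 7 UMIs. Midbrain dopamine and brainstem spots, also in section 1 only, were at 6.67 and 7.88 CPM. These groups have no replicate, and no test was made.

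Grm3, the group II receptor also found in glia, was the sparsest of the 6 genes, with 338 and 253 UMIs over all kept spots. It was highest in fibre tracts at 8.19 and 8.06 CPM (31 and 35 UMIs) and striatum at 7.80 and 7.35 CPM (3 and 34 UMIs). Spots rich in Pvalb and Gad1 gave 5.35 and 7.39 CPM, and deep isocortex 6.36 and 5.72. Hypothalamus (2.70 and 2.49), CA3 (2.98 and 2.54) and CA1 (3.52 and 2.09) were lowest. Both fibre tract sums lay above all other sums of the 10 groups, though by little over striatum. Outside these groups, midbrain dopamine spots of section 1 held 8.73 CPM (17 UMIs in 130 spots). Ependymal spots held 13.9 CPM in section 1, from 2 UMIs in 11 spots. The 18 spots of section 2 held 0 UMIs, with a 95% Poisson interval up to 13.3 CPM.

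The fibre tract difference was 1.01 ± 0.22 (adjusted p = 0.00044) and was called with either section left out. Glial and endothelial markers moved with this group. All 7 oligodendrocyte genes, all 6 oligodendrocyte precursor genes, all 7 microglial and all 6 endothelial genes, and 8 of 10 astrocyte genes, were called higher there, while 4 of 5 excitatory neuron genes were lower. The 1 tested gene of the inhibitory list was not called, since its other genes served to group spots. The oligodendrocyte list summed to 24652 and 20633 CPM in fibre tracts and 3578 to 7918 in the other groups. The precursor list summed to 450 and 604 CPM, against 138 to 384, while the astrocyte list (5009 and 3877) stayed within the range of the other groups (2561 to 5423). These rises were not particular to fibre tracts. In leptomeninges 7 of 7 oligodendrocyte, 3 of 6 precursor, 6 of 7 microglial, 6 of 6 endothelial and 9 of 10 astrocyte genes were higher. Grm3 was not called there, at 4.50 and 5.01 CPM. The part of these lists in the Grm3 result was not tested. Fibre tracts minus deep isocortex was 0.53 for Grm3 with a 95% interval from 0.01 to 1.06 and was not called (adjusted p = 0.10).

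Striatum was at 0.84 for Grm3 (0.27 to 1.42, adjusted p = 0.057), which missed the threshold. Hypothalamus was lower, at -0.95 ± 0.30 (adjusted p = 0.035), from 2 and 21 UMIs. There 2 of 6 receptors were called, against 13.6% of all genes. The ratio of hypothalamus to the other groups pooled was 0.491 in section 1, with a counting interval from 0.059 to 1.80. The hypothalamic call passed without TMM factors and under no other alternative run, and at -0.94 and -0.98 it missed the threshold without section 1 and without section 2.

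The ratio of Grm2 to Grm3 UMIs spanned a wide range over the groups. Dentate gyrus spots held 12.8 and 13.1 Grm2 UMIs for each Grm3 UMI, and hypothalamus 8.0 and 6.24. In striatum the ratio was 1.67 and 1.18, in fibre tracts 0.839 and 1.40, and in spots rich in Pvalb and Gad1 0.714 and 0.750. Among the 10 groups the dentate ratios were the highest and the Pvalb and Gad1 ratios the lowest in both sections. Some rest on few counts. Spots rich in Pvalb and Gad1 held 5 and 9 Grm2 UMIs and 7 and 12 Grm3 UMIs. Grm3 UMIs numbered 13 and 8 in dentate gyrus and 2 and 21 in hypothalamus. No interval was taken for a ratio, so close ratios cannot be ranked firmly. Over all spots the ratio was 2.99 and 3.20. Since capture differs between genes, the change of the ratio between groups is readable and its absolute size is not. The difference of ratios was not tested.

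**Figure D2:**
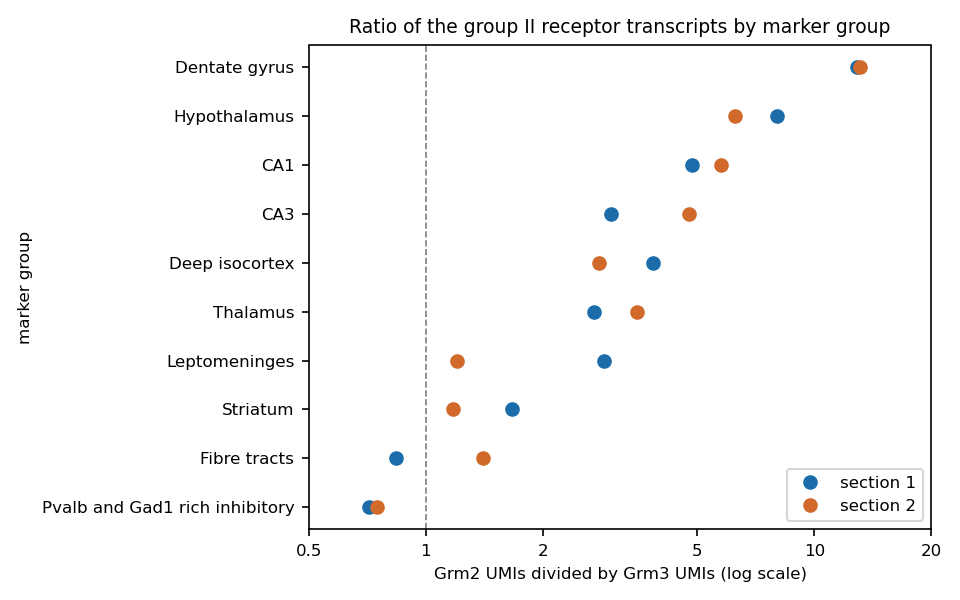
Grm2 UMIs divided by Grm3 UMIs (horizontal axis, log scale) in each marker group, with a point for each section and a dashed line at equal counts. The ratio runs from 0.714 and 0.750 in spots rich in Pvalb and Gad1 to 12.8 and 13.1 in dentate gyrus spots. Points carry no interval, and the Pvalb and Gad1 ratios rest on 7 and 12 Grm3 UMIs.

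Grm4, a group III receptor known from axon terminals, was highest among the 10 groups in thalamic spots, at 89.9 CPM (567 UMIs in 344 spots) and 90.9 CPM (514 UMIs in 275 spots). Striatum came next at 52.0 and 48.4 CPM, then spots rich in Pvalb and Gad1 at 35.9 and 35.1. Hypothalamus had 37.8 and 26.9, deep isocortex 28.8 and 27.2, dentate gyrus 21.5 and 32.2, CA3 27.8 and 23.5, fibre tracts 28.5 and 20.5, and leptomeninges 24.1 and 23.0. CA1 was lowest at 18.1 and 19.8 CPM. Both thalamic sums lay above all striatal sums, and both striatal sums above those of the remaining 8 groups.

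The thalamic difference was 1.71 ± 0.09 (adjusted p = 3.8e-16) and was called under every alternative run, with values from 1.41 to 1.77. Thalamus minus deep isocortex was 1.73 ± 0.12 (adjusted p = 2.4e-12). Thinned to 5000 UMIs per spot, 37.9% and 37.8% of thalamic spots held a Grm4 UMI, against 14.2% and 10.9% of fibre tract spots. Unthinned, these shares were 78.2% and 84.0%, and 24.1% and 24.5%. Thinning left out the fibre tract spots named for Grm5 and 1 of 344 thalamic spots in section 1. Of 5 excitatory neuron genes, 1 was higher and 2 were lower in thalamic spots, and their part in the result was not tested.

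Striatum was higher for Grm4 by 0.75 ± 0.14 (adjusted p = 0.00021), and above deep isocortex by 0.86 ± 0.16 (adjusted p = 0.00031). Without section 2 these were 0.65 and 0.76 and neither was called, and the pair (1.12) was not called with thinned sums. CA1 was lower, at -0.81 ± 0.17 (adjusted p = 0.0013), and not called without section 1 (-0.74) or with thinned sums (-0.81). Leptomeninges was lower, at -0.44 ± 0.16 (adjusted p = 0.035), and that call passed with neither section left out (-0.50 without section 1 and -0.45 without section 2). It was also lost with DESeq2.

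The highest Grm4 level of the series lay outside the tested groups. Spots rich in cerebellar granule cell markers, found in section 1 only, held 254 CPM of Grm4 (73 UMIs in 39 spots, 95% Poisson interval 199 to 320). Spots rich in Purkinje cell markers held 86.2 CPM (91 UMIs in 51 spots, 69.4 to 106), and granule cell markers came next in them. The thalamic interval of section 1, 82.6 to 97.6, overlapped that of the Purkinje spots and not that of the granule spots. Granule spots were shallow, with a median of 5861 UMIs. After thinning, 85.0% of the 20 granule spots with enough UMIs held a Grm4 UMI. The same spots gave 41.8 CPM of Grm5 and 6.96 CPM each of Grm7 and Grm8. They have no replicate, and no test was made.

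**Figure D3:**
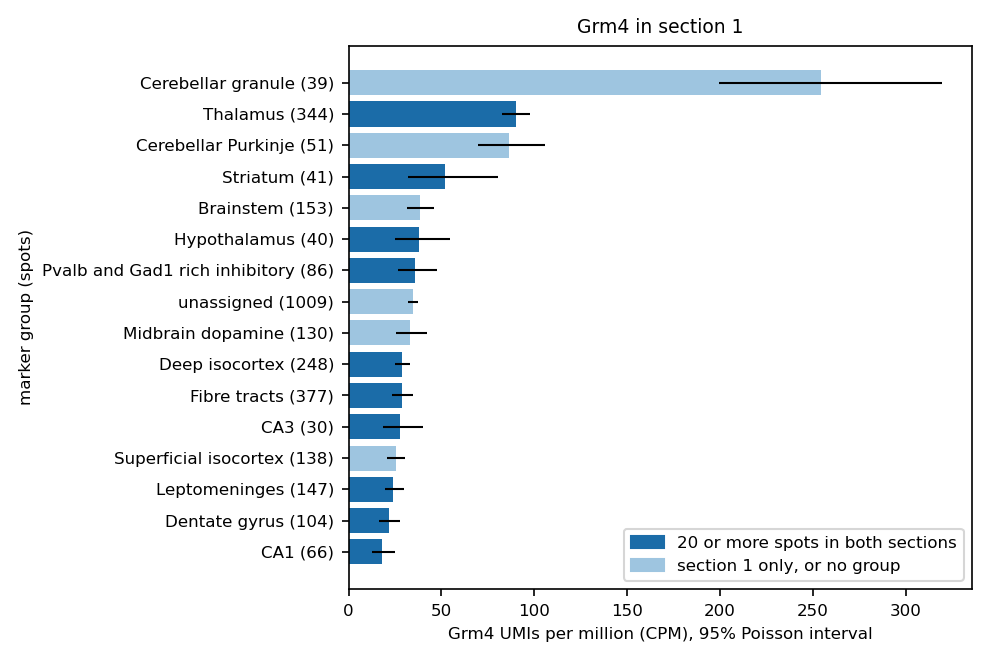
Grm4 level in CPM in section 1 (horizontal axis from 0) for every marker group with at least 20 spots and for unassigned spots, with spot numbers in brackets and 95% Poisson intervals. Dark bars are groups found in both sections, and light bars, among them cerebellar granule spots at 254, have no replicate or no group.

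Grm7, the group III receptor of presynaptic active zones, varied least clearly. It was at 28.6 and 19.5 CPM in striatum, 23.8 and 23.5 in CA3, 24.3 and 22.3 in hypothalamus, 21.7 and 20 in thalamus and 19.5 and 20.3 in dentate gyrus. Spots rich in Pvalb and Gad1 had 17.6 and 19.1, deep isocortex 21.5 and 14.3, and CA1 10.1 and 16.2. Fibre tracts (10.8 and 12.4) and leptomeninges (14.0 and 5.01) were lowest by mean level. Leptomeninges, with 53 and 5 UMIs, held the widest gap between sections of any receptor and group, at 2.80-fold.

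Grm7 was lower in fibre tracts, at -0.56 ± 0.18 (adjusted p = 0.013), and in leptomeninges, at -0.65 ± 0.22 (adjusted p = 0.023). The fibre tract call did not pass without section 1 (-0.43), and the leptomeningeal call did not pass without section 2 (-0.44). Fibre tracts minus deep isocortex was -0.53 ± 0.21 (adjusted p = 0.048), and -0.10 and not called without section 1. None of these 3 passed without the section term or with thinned sums. No group was called higher: CA3 was at 0.49 with a 95% interval from 0.02 to 0.95 (adjusted p = 0.15). CA1 minus CA3 was -0.87 (-1.50 to -0.24), with an adjusted p of 0.13.

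Grm8, the third group III receptor here, was highest in deep isocortex spots at 16.3 CPM (123 UMIs) and 14.1 CPM (69 UMIs), and next in hypothalamus at 14.8 and 10.3 (11 and 87 UMIs). These groups overlapped. Striatum (7.80 and 8.44), spots rich in Pvalb and Gad1 (6.87 and 5.54) and dentate gyrus (6.29 and 5.73) lay lower. Leptomeninges (4.77 and 5.01), CA1 (5.03 and 4.18), thalamus (3.65 and 5.48) and fibre tracts (4.49 and 4.38) lay lower still. CA3 held only 1 UMI in 30 spots and 2 UMIs in 52 spots, 0.993 and 1.27 CPM, below every other sum of the 10 groups. In section 1, superficial isocortex spots held 6.94 CPM (31 UMIs, interval 4.72 to 9.85), below the interval of deep isocortex spots (13.6 to 19.5).

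The deep isocortex difference of Grm8 was 1.59 ± 0.16 (adjusted p = 5.5e-09) and was called in each alternative run for it, with values from 1.46 to 1.75. Fibre tracts minus deep isocortex (-1.67 ± 0.24, adjusted p = 9.9e-07) and thalamus minus deep isocortex (-1.71 ± 0.21, adjusted p = 1.5e-07) were also called in each. Hypothalamus was higher by 1.04 ± 0.20 (adjusted p = 0.00048), and at 1.42 from the 11 UMIs of section 1 this did not pass without section 2. Striatum minus deep isocortex was -0.79 ± 0.25 (adjusted p = 0.037), and did not pass without section 1 (-0.67) or without section 2 (-1.15). Striatum against all groups was 0.71 (0.18 to 1.24, adjusted p = 0.091) and was not called. Thinned to 5000 UMIs, 9.68% and 9.78% of deep isocortex spots held a Grm8 UMI, against 1.66% and 1.93% in fibre tracts, from 34.7% and 29.3%, and 4.51% and 6.05%, unthinned.

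For CA3 the counts are so few that a ratio with its counting interval is the plainer measure. The CA3 level was 0.123 of the other groups pooled in section 1 (95% interval 0.0031 to 0.692) and 0.158 in section 2 (0.019 to 0.575). Both intervals lay below 1. The fit gave -2.46 ± 0.56 (adjusted p = 0.0018), a value that depends on how near-zero counts are handled, and it did not pass without section 2 (-2.71). CA3 minus dentate gyrus was -2.28 ± 0.65 (adjusted p = 0.018) and passed with neither section left out (-2.11 without section 1 and -2.56 without section 2). CA1 minus CA3 was 1.94 (0.49 to 3.39, adjusted p = 0.15). That pair called 0 of the 6 receptors in edgeR, against 4.13% of all genes, with 2 at an unadjusted p under 0.05 and 0 called by DESeq2.

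**Figure D4:**
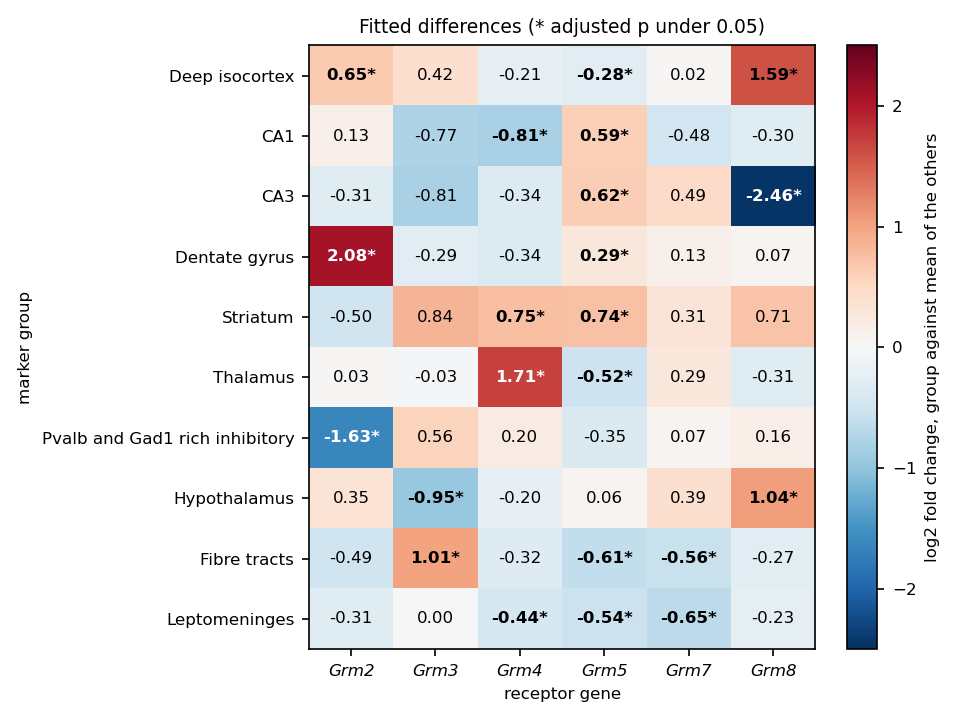
Fitted log2 fold change of each receptor gene (columns) in each marker group (rows) against the average of the remaining 9, with asterisks where the adjusted p was under 0.05. The largest rises are Grm2 in dentate gyrus (2.08), Grm4 in thalamus (1.71) and Grm8 in deep isocortex (1.59), and the largest fall is Grm8 in CA3 (-2.46).

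Within a group the receptors went different ways. In dentate gyrus Grm2 was 2.08 higher while Grm3 differed by -0.29 and Grm4 by -0.34, neither called. In striatum 5 of the 6 values were above 0, and the median over the 6 was 0.72, against -0.02 over all genes tested, with Grm2 at -0.50. In fibre tracts Grm3 was higher while Grm5 and Grm7 were lower, and the median was -0.41, against -0.01. The order of the 10 groups was similar in both sections, with Spearman's rho from 0.68 for Grm7 to 0.92 for Grm3. The same grouping rule served both sections, and these are descriptions.

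The signalling partners of the receptors were taken from 3 lists of 31 genes, all of which passed the filter. Of 12 genes of the group I route (Gq, phospholipase C, Homer and Shank scaffolds), 7 were higher and 1 lower in CA1, with a median log2 fold change of 0.47, while 7.64% of all genes were higher and 5.04% lower there. In fibre tracts 1 was higher and 7 lower, with a median of -0.44, against 18.8% and 16.8% of all genes. In striatum, where Grm5 was also high, 4 were higher and 2 lower, against 5.64% and 3.58%. In thalamus, where it was low, 6 were higher and 2 lower, against 12.4% and 10.2%. The medians over all genes tested were -0.01, -0.01, -0.02 and -0.02 in the same 4 comparisons. In CA3, where the mean Grm5 level was highest, 4 were higher and 3 lower, against 9.94% and 7.17% of all genes. In dentate gyrus 2 were higher and 2 lower, against 10.4% and 9.84%.

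Homer3, a scaffold that binds group I receptors, was at 102 and 91.5 CPM in CA3 and at most 36.7 elsewhere, a difference of 2.30 ± 0.12 (adjusted p = 1.4e-15). Plcb4, a phospholipase C of the Gq route, was at 265 and 207 CPM in thalamus (2.03 ± 0.08, adjusted p = 1.3e-18). Rgs4, which shortens G protein signals, was at 397 and 352 CPM there (1.37 ± 0.09, adjusted p = 1.3e-13). For each of these 3 genes both sums of the named group lay above all others. Shank3, a postsynaptic scaffold, was also called in thalamus (1.37 ± 0.34, adjusted p = 0.0031), but at 6.50 and 1.95 CPM its sums overlapped those of other groups.

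Of 11 genes of the Gi/o route and its presynaptic partners, 2 were higher and 3 lower in dentate gyrus, and 2 higher and 3 lower in thalamus, where Grm2 and Grm4 peaked. In dentate gyrus 10.4% of all genes were higher and 9.84% lower, and in thalamus 12.4% and 10.2%. Adcy1, an adenylyl cyclase, was at 748 and 600 CPM in dentate gyrus, above all other sums (1.56 ± 0.06, adjusted p = 1.1e-17). Adcy5, the main striatal cyclase, was at 388 and 396 CPM in striatum, where no sum of another group passed 113 (2.08 ± 0.07, adjusted p = 2.3e-19). Rgs2, another regulator of G protein signalling, was at 85.8 and 88.0 CPM there (0.85 ± 0.10, adjusted p = 1.0e-07). Gnai2, an inhibitory G protein subunit, was at 305 and 240 CPM in leptomeninges (0.83 ± 0.08, adjusted p = 1.0e-09), within reach of fibre tracts at 266 and 225. In striatum 3 of the 11 were higher and 2 lower, against 5.64% and 3.58% of all genes.

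Of 8 genes that supply or remove receptor ligands, 3 were higher in dentate gyrus, against 10.4% of all genes. In fibre tracts 2 were higher and 2 lower, against 18.8% and 16.8%. Rimkla makes the dipeptide N-acetylaspartylglutamate, a ligand of mGlu3, and Folh1 breaks it down. Rimkla was higher in spots rich in Pvalb and Gad1 by 1.25 ± 0.15 (adjusted p = 4.5e-07). Folh1 was higher in fibre tracts by 1.26 ± 0.32 (adjusted p = 0.0024), at 8.45 and 3.69 CPM, and the second value lay inside the range of other groups. Glul, the glial enzyme that makes glutamine, was at 1427 and 1293 CPM in fibre tracts (0.69 ± 0.06, adjusted p = 9.6e-12).

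The genes most like each receptor were taken by Pearson correlation of log2 CPM over the 10 groups, computed in each section and ranked by the lower value, among 5349 genes. For Grm4 they were Ppp2r5d, Pcp4, Cit, Limk2 and Pdp1, with lower values from 0.85 to 0.90. For Grm5 they were Wscd2, Noc2l, Agap2, Rasgef1a and Camkv, from 0.87 to 0.92. The best matches of these receptors were closer than those of the others. Grm2 was followed by Hnrnpa2b1, Celf3, Btbd9, Ewsr1 and Fam163b (0.75 to 0.80). Grm3 was followed by Itgav, Hip1r, Dstyk, Rtkn and Ctsa (0.73 to 0.86). Grm7 went with Sumo3, Blmh, Gpi1, Tomm20 and Ei24 (0.76 to 0.80), and Grm8 with Fnbp1l, Cdh13, Pqbp1 and Cmtm4 (0.76 to 0.82). With 10 points that share the same spots and depth, these values are descriptions. Between receptors, the Pearson correlation of Grm2 with Grm3 was -0.26 and -0.41, and that of Grm4 with Grm7 was 0.56 and 0.35.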

How the data were processed

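The authors deposited UMI counts per gene and spot for 2 sections, whole numbers with no normalization, made with Space Ranger (1.2.2 for section 1 and 2.0.1 for section 2 per the file headers, 2.0.1 and mm10 for both per the submitters' processing notes). No gene annotation release is named in the sources used here, and no spot positions entered the analysis. The members and lists were chosen with earlier results of these data known.

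Spots with at least 500 UMIs were kept, and no doublet caller was run. Each spot's marker scores (mean z of log counts per 10000 UMIs) were averaged with its 15 nearest neighbours in 30 principal components of 2000 variable genes. A spot joined its top list at a score of at least 0.5 and a margin of at least 0.25, a rule set after marker levels, but not receptor levels, were seen. The 15922 genes that placed spots, and the markers, were not tested.

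UMIs were summed per group and section (20 sums of 384394 to 8438704 UMIs) and fitted with edgeR 4.0.16 in R 4.3.3 (TMM factors, filterByExpr, quasi-likelihood F tests), which left 9 residual degrees of freedom and 6751 genes. Sums of 1 section come from the same tissue, so the section entered as a block. The SE is the log2 fold change over the square root of F, and 95% intervals use that SE. Comparisons share sums and are not independent. Intervals on counts cover counting error only. Of 7 planned pairs, 3 with superficial isocortex were not run, and 2 pairs with deep isocortex were added. Named genes are the 6 receptors, the 4 called genes of each partner list with the largest change of 1 sign in both sections, and the 5 genes most like each receptor whose mean log2 CPM was 5 or more. Of these, 2 genes are not reported here. The fit was tested on simulated data. Alternatives were no TMM factors, DESeq2 1.42.0, no filter, other score thresholds and margins, and odd-numbered markers only. Others were at least 5000 UMIs per spot, no section term, thinned sums, and the compared groups' sums of each section left out. Python 3.11.15, numpy 2.4.6, scipy 1.17.1, pandas 2.3.3 and scikit-learn 1.9.0 were used.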

Additional observations from a re-analysis of the deposited data

How the results depend on the processing

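Of 60 receptor tests of a group against the others 22 were called, of 24 tests in the fixed pairs 6, and of 12 in the added pairs 7, against 19.5%, 14.8% and 17.6% of all gene tests. Of these 35 calls, 10 held under every alternative run that tested them. They were Grm2 in dentate gyrus and in both dentate pairs, Grm3 in fibre tracts, Grm4 in thalamus and against deep isocortex, Grm5 in CA1, and Grm8 in deep isocortex and in its pairs with fibre tracts and thalamus. The Grm3 and Grm8 calls among them were not tested with thinned sums. With a section's sums left out, calls were 14 to 15 for groups, 3 to 6 for the fixed pairs and 3 to 4 for the added pairs, and 13 of the 35 held without either. These runs dropped only the sums of the compared group or pair from a section, and the other groups kept theirs. The any-difference test compares all groups, so it would lose the whole section. That would leave no residual degrees of freedom, and it was not run so. With sums thinned to the smallest, 384394 UMIs, Grm3 and Grm8 did not pass the filter, and calls fell to 5 for groups, 2 for the fixed pairs, 1 for the added pairs and 3 of 4 for any difference. There Grm2 in thalamus minus deep isocortex turned to 0.26 and Grm7 in fibre tracts minus deep isocortex to 0.16, neither called. Without the section block, the paired analysis lost 10 of the 35 calls, leaving 16 for groups, 5 for the fixed pairs and 4 for the added pairs. DESeq2 left 18, 4 and 4. The stricter threshold gave hypothalamus under 20 spots in section 1, so it was not tested there. Each comparison tested 6751 genes, as did the fit without the block, but 4174 genes thinned and from 6881 to 7330 with a section left out. Gene calls summed over the 10 groups were 13148 (19.5% of tests), and 7084 (10.49%) without the block, 3624 (8.68%) thinned, 5837 (8.31%) without section 1 and 8323 (11.8%) without section 2. Over the fixed pairs they were 3996 (14.8%), and 2168 (8.03%), 1049 (6.28%), 1575 (5.54%) and 2647 (9.17%) in the same order, and over the added pairs 2383 (17.6%), and 1085 (8.04%), 481 (5.76%), 1054 (7.59%) and 1310 (9.51%). Depth limits Grm3 and Grm8, whose smallest sums held 2 and 1 UMIs.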
